A study of Saccharomyces cerevisiae with 4 samples.

Results

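CHA1, CYC1, DDR2 and SUC2 are inducible budding yeast genes transcribed by RNA polymerase II, grouped here because of their known dependence on the Nhp6 proteins. Every nucleosome interval was taken whose midpoint lay between 700 bp upstream of the open reading frame (ORF) start and the ORF end. This rule gave 33 of the 57674 intervals listed for nhp6ab cells and 32 of the 60557 listed for wild-type (WT) cells. The mark measured by ChIP-seq was acetylation of lysine 16 of histone H4 (H4K16ac). Both nhp6ab and WT cells were in exponential growth in YPD, a rich glucose medium, and no strain background, allele structure or further treatment is given. The labels name 4 libraries, 2 for nhp6ab and 2 for WT, but each genotype has a single column of read counts. The spread between replicates is therefore unknown and no test between genotypes was made. All 4 are H4K16ac libraries, with no input or total histone library among them. Low acetylation and low nucleosome occupancy therefore cannot be told apart.

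Nhp6A and Nhp6B are small HMGB-type proteins that bend DNA and help the histone chaperone FACT to open nucleosomes. H4K16ac is placed by the SAS and NuA4 acetyltransferases and removed by the deacetylase Sir2, and it loosens contacts between neighbouring nucleosomes. Earlier work in yeast tied full induction of CHA1, CYC1 and DDR2 to Nhp6. CHA1 encodes the serine and threonine deaminase and is induced by those amino acids through the activator Cha4, and in uninduced cells a positioned nucleosome is known to cover its TATA element. CYC1 encodes iso-1-cytochrome c, is driven by heme through Hap1 and by the Hap2/3/4/5 complex, and is lowered by glucose. DDR2 encodes a small protein of the general stress response under Msn2 and Msn4. SUC2 encodes invertase, is repressed by glucose through Mig1 and the Tup1-Cyc8 corepressor, and its promoter nucleosomes are remodelled by SWI/SNF. RNA was not measured here, so the expression state of these genes in the sampled cells is not known.

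The nhp6ab table held 20293261 counts with a median of 354 per interval, and WT cells had 26526939 counts with a median of 442. Ratios are log2 of nhp6ab over WT after scaling to these totals, with an exact conditional binomial 95% interval that covers counting error only. Counts are printed unscaled, and the nhp6ab total was 76.5% of the WT total. Scaling to totals hides any change common to all of the genome. Interval width bears on every sum, because intervals of 120 bp had a median of 287 counts in nhp6ab and 348 in WT, against 390 and 480 for those of 160 bp. The narrow intervals made up 18.3% of the nhp6ab list and 15.3% of the WT list. At the 4 genes they were 11 of 33 intervals in nhp6ab and 4 of 32 in WT. Counts per base of listed interval, which hardly differed between the widths (medians of 2.39 and 2.44 in nhp6ab and of 2.90 and 3 in WT), are therefore given beside the sums. Ratios per base are scaled to the totals like the sums. Levels are counts per base divided by the table's mean, which was 2.40 in nhp6ab and 2.93 in WT. Because nhp6ab had fewer and narrower intervals, a ratio of such levels is 0.10 lower on the log2 scale than the ratio per base, and a small ratio per base can change sign between these scalings. As a check of the labels, the NHP6A ORF (YPR052C, chromosome XVI, 665693 to 665974) had 260 counts in nhp6ab and 592 in WT. The NHP6B ORF (YBR089C-A, chromosome II, 426190 to 426489) had 564 and 882. After scaling the ratios were −0.80 (−1.02 to −0.59) for NHP6A and −0.26 (−0.41 to −0.10) for NHP6B. Both were lower in nhp6ab, but neither gene was without reads, so this check did not settle the labels. The directions given below are those of the tables as labelled.

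Over the whole window 3 of these genes had scaled counts close to those of WT, and DDR2 was lower. CHA1 had 2726 counts in nhp6ab and 3436 in WT, a log2 ratio of 0.05 (−0.02 to 0.13). CYC1 had 1717 counts in nhp6ab and 2547 in WT, a ratio of −0.18 (−0.27 to −0.09). For SUC2 the counts were 4596 in nhp6ab and 6579 in WT, a ratio of −0.13 (−0.19 to −0.08). CHA1, CYC1 and SUC2 lay at percentiles 66.3, 22.7 and 29.6 of the 6190 measured genes. CHA1 and SUC2 were inside the interquartile range of all genes (−0.16 to 0.10) and CYC1 just below it. DDR2 stood apart with 676 counts in nhp6ab and 1533 in WT, a ratio of −0.79 (−0.93 to −0.66) at percentile 1.53. It was the 1 gene of 4 at least 1.5-fold lower with an interval that excluded 0, where 3.28% of measured genes were. None of the 4 was at least 1.5-fold higher (1.74% of measured genes). At 2-fold none was lower (0.969%) or higher (0.275%). The median ratio was −0.16 for the 4 genes and −0.02 for all measured genes. Genes within 25 kb of each member had median ratios between −0.10 and −0.01, so none of the 4 lay in a region shifted as far as DDR2 itself.

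**Figure D1:**
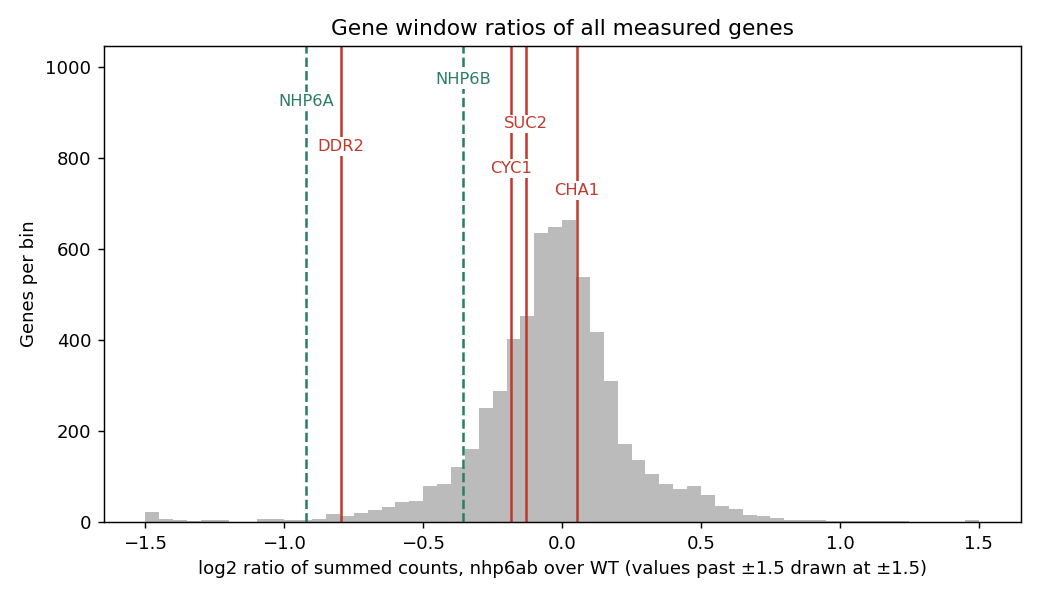
Number of genes (y axis) by log2 ratio of summed H4K16ac counts over the gene window, nhp6ab over WT (x axis), for 6190 measured genes in grey. Solid lines mark the 4 inducible genes and dashed lines NHP6A and NHP6B; DDR2 at −0.79 lies in the lower tail, while CHA1, CYC1 and SUC2 lie between −0.18 and 0.05.

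CHA1 (YCL064C, Crick strand of chromosome III, ORF 15798 to 16880 in R64 coordinates) had low H4K16ac counts over its ORF in both tables. Its 7 ORF intervals in nhp6ab held 1276 counts and its 6 in WT 1583, a ratio of 0.08 (−0.03 to 0.18). The level per base was 0.56 in nhp6ab and 0.57 in WT, at percentiles 6.41 and 5.73 of measured ORFs. Low values thus ran along the whole ORF in both tables, from 0.44 to 0.68 in nhp6ab and from 0.43 to 0.77 in WT. CHA1 is transcribed away from VAC17, a gene for a vacuole inheritance protein whose ORF begins at 17290, so the far end of the CHA1 window lies inside VAC17. There the interval at 17403 to 17563 in nhp6ab held 489 counts and its WT counterpart at 17396 to 17556 held 676. The next one, at 17247 to 17407 in nhp6ab and 17244 to 17404 in WT, held 469 and 610. These VAC17 intervals had levels of 1.22 to 1.27 in nhp6ab and 1.30 to 1.44 in WT, well above those of CHA1 itself, and their ratios of −0.08 and 0.01 had intervals that spanned 0.

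The map of listed nucleosomes around the CHA1 start differed between the tables. In nhp6ab 3 intervals lay between the VAC17 and CHA1 ORFs, with midpoints 310, 208 and 63 bp upstream of the ORF start and 221, 113 and 158 counts. In WT 2 intervals lay there, at 266 and 138 bp upstream, with 289 and 278 counts. Together this gave 492 counts in nhp6ab and 567 in WT and a ratio of 0.18 (0.0046 to 0.36) for the shared promoter. That sum sets 3 intervals against 2, and their levels per base were 0.65, 0.39 and 0.41 in nhp6ab and 0.63 and 0.59 in WT. The whole upstream part of CHA1 had a ratio of 0.03 (−0.07 to 0.13) on sums but −0.19 (−0.29 to −0.09) per base. The nhp6ab interval nearest the start, at 16863 to 17023, reached across the ORF start by 17 bp and had no WT counterpart within 50 bp. The WT interval at 16938 to 17098 had no nhp6ab counterpart. Inside the ORF, the first nucleosome held 244 counts in nhp6ab (16722 to 16880) and 220 in WT (16745 to 16905). Its ratio of 0.54 (0.27 to 0.81) was the highest of all 28 pairs at the 4 genes, and it lay 24 bp further into the gene in nhp6ab. At the other end of the ORF the nucleosome with 128 counts in nhp6ab (15895 to 16017) and 272 in WT (15885 to 16045) had a ratio of −0.70 (−1.02 to −0.39). That nhp6ab interval was 122 bp wide and the WT one 160 bp, and per base the ratio was −0.31 (−0.62 to −0.0015).

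**Figure D2:**
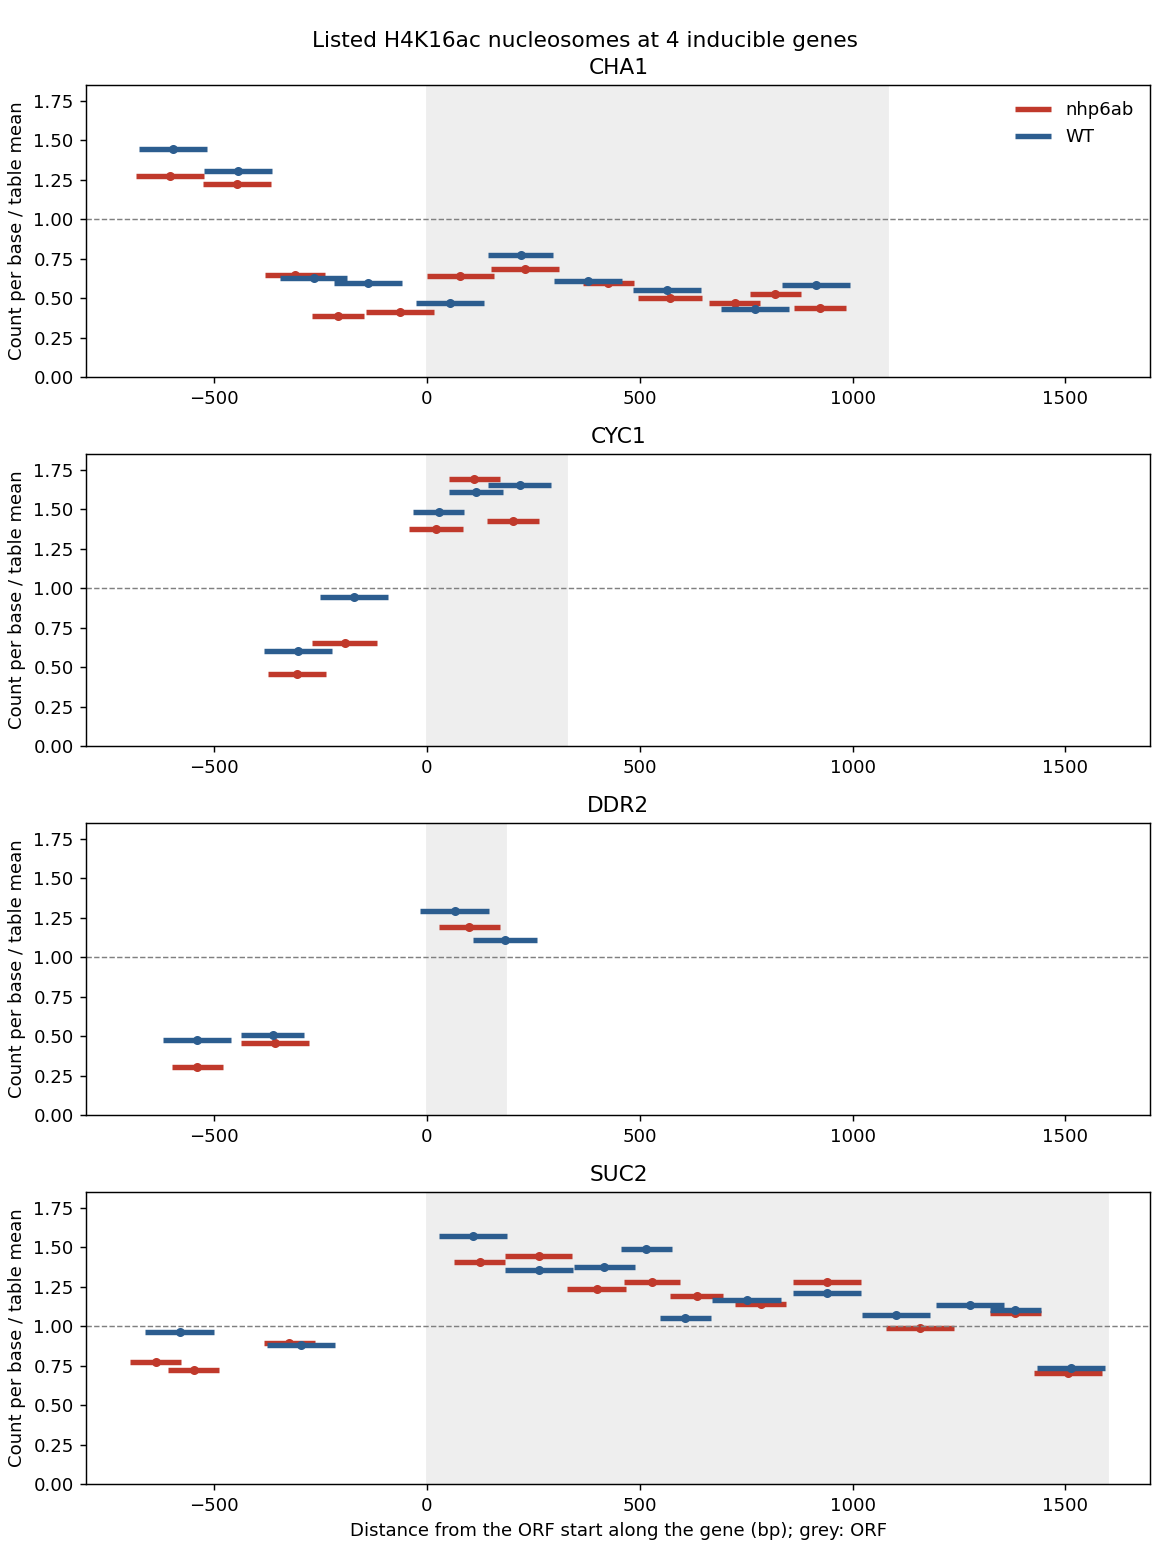
Level of each listed nucleosome (y axis, count per base divided by the table's mean) against distance from the ORF start along the gene (x axis, bp), with nhp6ab in red and WT in blue, and the ORF shaded. Each bar spans 1 listed interval and the dot marks its midpoint; CHA1 lies below 0.8 throughout its ORF in both tables, CYC1 above 1.3, and DDR2 and SUC2 have an unlisted stretch just upstream of the ORF start.

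CYC1 (YJR048W, Watson strand of chromosome X, ORF 526335 to 526664) had a strong contrast between a low promoter and a high ORF. Upstream, the interval at 525961 to 526099 held 152 counts in nhp6ab and its counterpart at 525952 to 526112 held 281 in WT. The one nearest the ORF start, at 526066 to 526218 in nhp6ab and 526085 to 526243 in WT, held 238 and 436. Both were lower in nhp6ab, with ratios of −0.50 (−0.79 to −0.21) and −0.49 (−0.72 to −0.26). For the upstream part as a whole, 390 counts in nhp6ab and 717 in WT gave −0.49 (−0.67 to −0.31), at percentile 18.7 of measured upstream parts. Per base the upstream part was at −0.36 (−0.54 to −0.18), at percentile 9.25 of measured upstream parts. The mean interval width there was 145 bp in nhp6ab and 159 bp in WT. Per base the farther pair had a ratio of −0.29 (−0.58 to 0.0032), which spanned 0, and the nearer one −0.43 (−0.67 to −0.20). None of the 4 genes had an upstream sum at least 1.5-fold lower (14.7% of measured genes) or higher (4.19%).

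Over the CYC1 ORF the 3 intervals held 422, 487 and 418 counts in nhp6ab and 520, 594 and 716 in WT. The sum gave a ratio of −0.08 (−0.18 to 0.03), which is within counting error of 0. The level per base was 1.49 in nhp6ab and 1.59 in WT, at percentiles 97.0 and 99.1 of measured ORFs, the highest of the 4 genes in both tables. All 3 intervals overlapped their neighbours in both tables, so the same reads may have been counted more than once. Within the CYC1 ORF the last pair, with 418 counts in nhp6ab and 716 in WT, had a ratio of −0.39 (−0.57 to −0.21). Just past the ORF end the nearest interval held 489 counts at 526636 to 526796 in nhp6ab, or 1.38 times the table's median, and 471 at 526683 to 526821 in WT, or 1.07 times. With 100 bp past the ORF end included, the window ratio of CYC1 was −0.07 (−0.15 to 0.01), and it turned to 0.18 when any overlap with the window sufficed.

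DDR2 (YOL052C-A, Crick strand of chromosome XV, ORF 231570 to 231755) has a very short ORF, and its low sum turned on a single interval. In nhp6ab 1 interval lay on the ORF, at 231583 to 231727 with 412 counts. In WT 2 overlapping intervals lay there, at 231610 to 231770 with 606 counts and at 231497 to 231647 with 486. The midpoint of the last lay 2 bp inside the window. On sums the ORF ratio was −1.02 (−1.19 to −0.85), at least 2-fold lower, as were 1.17% of measured ORFs. At 1.5-fold DDR2 was again the 1 ORF of 4 that was lower (4.15%), and none was higher (3.39%). By the mean per listed nucleosome it was −0.02, and per base 0.09 (−0.08 to 0.25), or −0.01 scaled to the mean per base. The paired ORF nucleosome alone had a ratio of −0.17 (−0.35 to 0.01). No interval was listed in nhp6ab over the next stretch, since the next one lay at 231049 to 231169 with 363 counts, so no second nhp6ab interval lay just outside the window. For the whole DDR2 window the ratio was −0.38 by the mean and −0.25 (−0.38 to −0.12) per base, both short of 1.5-fold, and it turned to 1.00 when only intervals that overlap no other were kept, which leaves no WT interval on the ORF.

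The DDR2 promoter carried the lowest levels of the 4 genes. Its far interval, at 232234 to 232354 in nhp6ab with 88 counts and at 232214 to 232374 in WT with 222, had the same midpoint in both tables, 539 bp upstream. Its ratio of −0.95 (−1.32 to −0.59) was the lowest of the 28 pairs, or −0.53 (−0.91 to −0.17) per base. The nearer one, at 232031 to 232191 in nhp6ab and 232043 to 232191 in WT, held 176 and 219 counts, a ratio of 0.07 (−0.22 to 0.36), or −0.04 (−0.34 to 0.25) per base. That interval spanned 0, and the sum of 264 counts for both in nhp6ab and 441 in WT gave −0.35 (−0.58 to −0.13). The upstream level per base was 0.39 in nhp6ab and 0.49 in WT, at percentiles 5.73 and 4.94 of measured genes. SPE2, the S-adenosylmethionine decarboxylase gene that lies upstream on the same strand, ends at 232446, so no interval of the DDR2 window had its midpoint in another ORF.

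SUC2 (YIL162W, Watson strand of chromosome IX, ORF 37385 to 38983) had a high ORF level that declined towards its end in both tables. Its 10 ORF intervals in nhp6ab held 270 to 548 counts and its 11 in WT 346 to 735. The first ORF nucleosome held 405 counts in nhp6ab (37449 to 37569) and 735 in WT (37414 to 37574), a ratio of −0.47 (−0.65 to −0.30). Since the nhp6ab interval was 120 bp and the WT one 160 bp wide, the ratio per base was −0.06 (−0.24 to 0.12). The second held 548 counts in nhp6ab and 634 in WT, a ratio of 0.18 (0.01 to 0.34), and the last 270 and 346, a ratio of 0.03 (−0.21 to 0.26). Of 9 ORF pairs, 2 were lower and 3 higher with an interval that excluded 0, and 4 spanned it, where 15.9% of all ORF pairs were lower and 29.4% higher by that measure. The ORF sum of 3907 counts in nhp6ab and 5717 in WT gave −0.16 (−0.22 to −0.10), and per base 0.06 (0.00059 to 0.12). Scaled to the mean per base it was −0.04 (−0.10 to 0.02), so the sign per base depends on the scaling. Levels per base were highest near the start, at 1.44 in nhp6ab and 1.57 in WT, and lowest at the last nucleosome, at 0.70 and 0.74.

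Upstream of SUC2, nhp6ab had 3 intervals of 120 bp with 223, 209 and 257 counts, and WT had 2 of 160 bp with 450 and 412. The pair at 36777 to 36897 in nhp6ab and 36724 to 36884 in WT, 548 and 581 bp upstream, had 209 and 450 counts and a ratio of −0.72 (−0.96 to −0.48), or −0.30 (−0.55 to −0.07) per base. The nearer pair, at 37002 to 37122 in nhp6ab and 37009 to 37169 in WT, had a ratio of −0.29 (−0.52 to −0.07), or 0.12 (−0.11 to 0.35) per base. This pair lies over YIL163C, an uncharacterised ORF on the other strand. Because of the extra nhp6ab interval, the upstream sum of 689 counts in nhp6ab and 862 in WT gave 0.06 (−0.08 to 0.21), although both pairs were lower. By the mean per listed nucleosome the upstream ratio was −0.52, and per base −0.11 (−0.25 to 0.04).

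**Figure D3:**
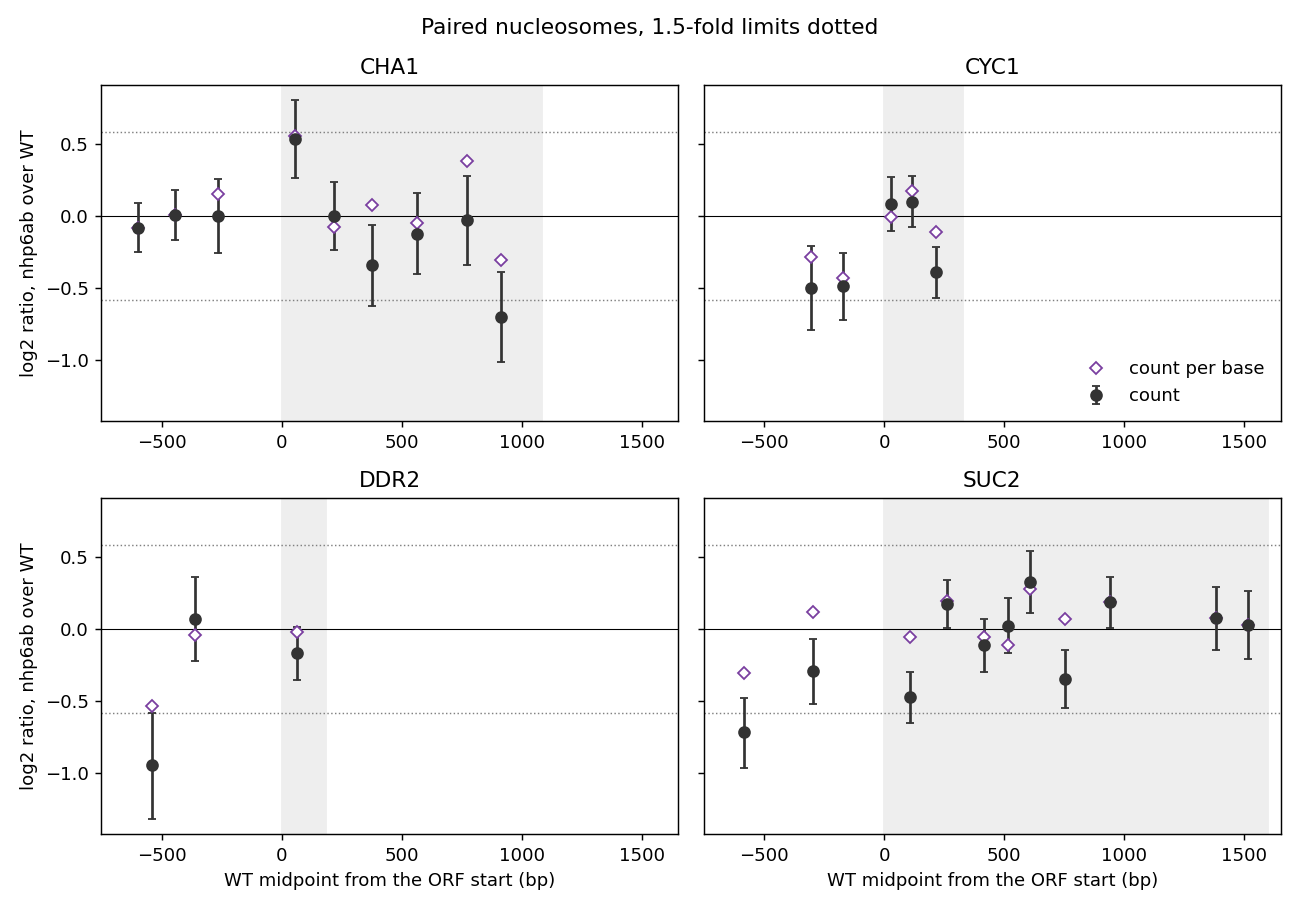
Log2 ratio of nhp6ab over WT (y axis) for each of the 28 nucleosomes paired between the tables, against the distance of the WT midpoint from the ORF start (x axis, bp), with the ORF shaded. Filled points are ratios of counts with 95% counting intervals, open diamonds ratios of counts per base, and dotted lines 1.5-fold; of the filled points, 3 lie below the lower line, at DDR2, SUC2 and CHA1, and none above the upper one.

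Of the 28 pairs at the 4 genes, 10 were lower and 4 higher in nhp6ab with an interval that excluded 0, and 14 spanned it. Among all 51169 pairs 18.2% were lower and 28.1% higher by that measure. Per base, 4 of the 28 were lower and 5 higher with an interval that excluded 0. The share of all pairs was not computed per base. On counts, 3 were at least 1.5-fold lower, the far upstream nucleosomes of DDR2 and SUC2 and the last ORF nucleosome of CHA1 (2.89% of all pairs). Per base these 3 stood at −0.53, −0.30 and −0.31, short of 1.5-fold. None of the 28 pairs was at least 1.5-fold higher on counts (4.52% of all pairs). None passed 2-fold in either direction (0.758% lower and 0.321% higher). On counts, upstream nucleosomes lay lower than ORF nucleosomes. Upstream, 7 of 9 pairs were below 0 with a median of −0.29, where 58.6% of all upstream pairs were below 0 with a median of −0.07. Of these 9, 2 were at least 1.5-fold lower, where 10.3% of upstream pairs were, and none was higher by that much (2.78%). The 2 sets are not alike, because the set of all upstream pairs leaves out pairs inside any protein-coding ORF. The 9 include the VAC17 pairs of CHA1 and the YIL163C pair of SUC2. In the ORFs, 10 of 19 were below 0 with a median of −0.00, where all ORF pairs had a median of 0.06, and 1 of 19 was at least 1.5-fold lower (1.51%) and none higher (4.7%). Width bears on this contrast, since 4 of 12 upstream intervals in nhp6ab and 0 of 10 in WT were 120 bp wide. Per base, 6 of the 9 upstream pairs were below 0, the middle one at −0.08, and 9 of the 19 ORF pairs. Per-base intervals excluded 0 for 3 upstream pairs, all lower, and in the ORFs for 1 lower and 5 higher.

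Promoter and ORF were also compared as summed parts, and the measures disagreed. On sums the upstream ratio minus the ORF ratio was −0.04 for CHA1, −0.41 for CYC1, 0.67 for DDR2 and 0.23 for SUC2, so the upstream part was relatively lower at 2 of the 4 genes (median −0.10 over all genes measured in both parts). Per base, a measure added after the data were seen, it was lower at all 4. The upstream ratios per base were −0.19 (−0.29 to −0.09) for CHA1, −0.36 for CYC1, −0.22 (−0.44 to 0.01) for DDR2 and −0.11 for SUC2. All of them lay below 0, as did 49.4% of measured genes, with intervals that excluded 0 for CHA1 and CYC1. The share of all genes with such an interval was not computed per base. Scaled to the mean per base, the upstream ratios were −0.29, −0.46, −0.32 and −0.21, with intervals that all excluded 0. On that scaling 68.9% of measured upstream parts were below 0. The ORF ratios per base were 0.08, 0.01, 0.09 and 0.06 in the same order of genes, near the median of 0.07 of all measured ORFs. Scaled to the mean per base, they were −0.03, −0.09, −0.01 and −0.04, with intervals that all spanned 0 and a median of −0.03 over all measured ORFs. The upstream ratio minus the ORF ratio, which does not depend on this scaling, was −0.26 for CHA1, −0.37 for CYC1, −0.30 for DDR2 and −0.17 for SUC2. Over the 5748 genes measured in both parts the median difference was −0.07 and 63.8% were below 0, so the sign at these genes was the common one. Their sizes lay at percentiles 12.3 to 33.3, inside the range of ordinary genes. Since nothing was replicated, a difference of this group from other genes was not tested.

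**Figure D4:**
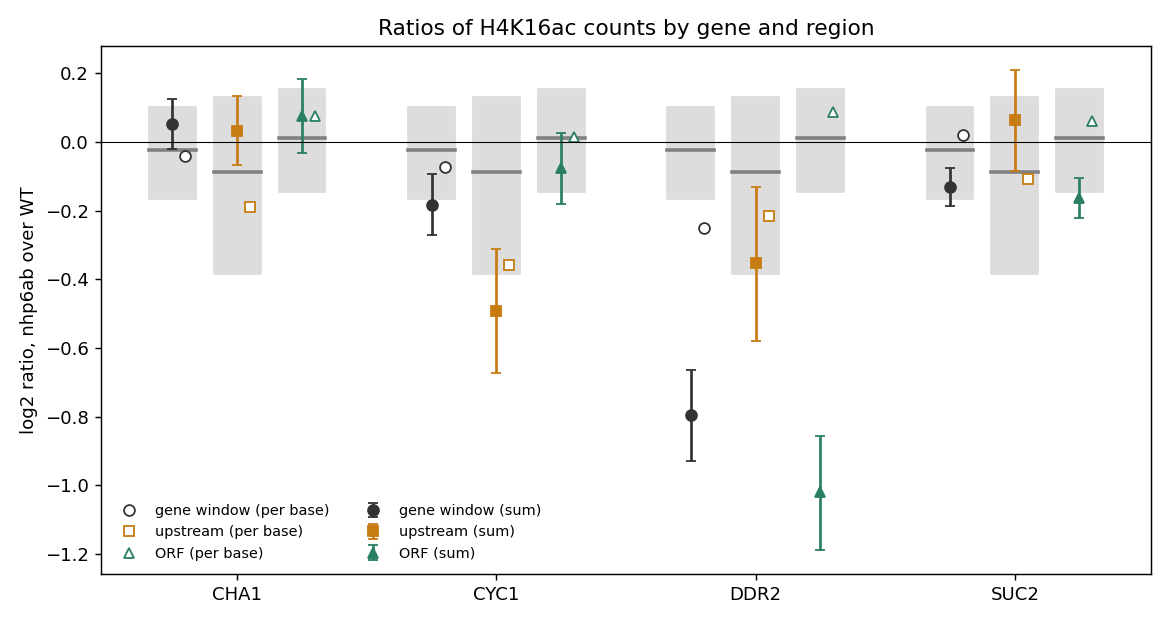
Log2 ratio of nhp6ab over WT (y axis) for the gene window, the upstream part and the ORF of each gene (x axis). Filled symbols are ratios of summed counts with 95% counting intervals, open symbols ratios per base, and grey boxes and lines the interquartile range and median of the summed ratio over all measured genes; the DDR2 ORF falls at −1.02 by the sum and 0.09 per base.

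Of the intervals at the 4 genes, 28 were paired within 50 bp, which left 5 of 33 unpaired in nhp6ab and 4 of 32 in WT. Over all intervals 88.7% were paired in nhp6ab and 84.5% in WT. The median shift of the midpoint was 0 bp (range −44 to 48 bp along the gene, which the pairing limits to 50 bp). At CHA1 all 6 ORF pairs were shifted into the gene in nhp6ab, by 7 to 48 bp, and all 3 upstream pairs away from it, by 3 to 44 bp. At CYC1 all 5 pairs lay further upstream in nhp6ab, by 2 to 22 bp. Positions at SUC2 moved in both directions, between −27 and 33 bp.

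The stretch without a listed nucleosome just before the ORF separated CHA1 from the stress and sugar genes. At DDR2 the space between the last upstream and the first ORF interval was 304 bp in nhp6ab and 273 bp in WT. At SUC2 it was 327 bp in nhp6ab and 245 bp in WT, but the intervals on either side were 120 bp wide in nhp6ab and 160 bp in WT. Among protein-coding genes these stretches lay at percentiles 71.8 in nhp6ab and 73.9 in WT for DDR2. For SUC2 the percentiles were 75.4 and 68.9. At CYC1 the space was 75 bp in nhp6ab and 60 bp in WT, and a wider unlisted stretch of 549 and 524 bp lay further out, between the CYC1 promoter intervals and ANB1, the divergent gene for a translation factor. CHA1 had no such space. Its intervals overlapped by 17 bp at the ORF start in nhp6ab and stood 33 bp apart in WT. The widest unlisted stretch anywhere in its upstream part was 4 bp in nhp6ab and 33 bp in WT, at percentiles 0.101 and 6.20 of protein-coding genes, whose medians were 191 and 157 bp. A stretch without a listed interval is not a count of 0, because the reads themselves were not used here.

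Ordered by level per base, the ORFs ran from CYC1 through DDR2 and SUC2 to CHA1 in both tables. The levels were 1.49, 1.19, 1.17 and 0.56 in nhp6ab and 1.59, 1.20, 1.20 and 0.57 in WT. DDR2 and SUC2 did not differ beyond counting error in nhp6ab (1.08 to 1.31 for DDR2 and 1.13 to 1.21 for SUC2) or in WT (1.13 to 1.28 and 1.17 to 1.23). The upstream parts ran from CHA1 through SUC2 and CYC1 to DDR2, at 0.81, 0.80, 0.56 and 0.39 in nhp6ab and 0.99, 0.92, 0.77 and 0.49 in WT. The CHA1 value includes the VAC17 intervals, and CHA1 and SUC2 had overlapping counting intervals in both tables. Between the ORFs alone, the CHA1 intervals stood at 0.39 to 0.65 in nhp6ab and at 0.59 to 0.63 in WT.

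The genes most like each member were sought by Euclidean distance over 4 values, the log2 mean count per listed nucleosome over the table's median, upstream and in the ORF, in each of the 2 tables. Among 5245 eligible genes, CHA1 was nearest to NOP58, of box C/D snoRNP assembly (distance 0.07), and RPS9B, a small ribosomal subunit gene (0.18). CYC1 was nearest to YGK3, a kinase gene related to GSK-3 (0.09), and YPR127W (0.14). For DDR2 these were MLS1, the malate synthase gene, and HEF3, a translation elongation factor 3 gene, both at 0.08. SUC2 was nearest to CIP1 (0.13) and FRT1 (0.14). The gene window ratios of these 8 genes lay between −0.21 and 0.07. The distance used levels in both tables, so these ratios were not independent of how the genes were chosen. The upstream values of CHA1 included the VAC17 intervals.

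Genes that act on the 4 members or with them were compared through 5 lists of 64 names, all of which were measured. None of the 16 regulators was at least 1.5-fold lower (3.28% of measured genes) or higher (1.74%), and their median ratio was −0.03. MIG1, the glucose repressor of SUC2, was lowest with 4501 counts in nhp6ab and 7821 in WT, a ratio of −0.41 (−0.46 to −0.36). HAP1, the heme activator of CYC1, was highest with 8107 counts in nhp6ab and 7739 in WT, a ratio of 0.45 (0.41 to 0.50). HAP1 lies on chromosome XII, where the median ratio of all 523 measured genes was 0.38, so its value was close to that of its chromosome.

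Of 12 genes of serine, threonine and glycine metabolism, none passed 1.5-fold and the median was 0.01. SER3, for a first step of serine synthesis, was lowest with 2765 counts in nhp6ab and 4375 in WT (−0.28). It had 9 listed nucleosomes in nhp6ab and 11 in WT, and stood at 0.01 by the mean and −0.03 per base. SHM2, a serine hydroxymethyltransferase gene on chromosome XII, was highest with 5813 counts in nhp6ab and 5955 in WT (0.35). The 12 genes around cytochrome c also had none past 1.5-fold and a median of −0.04, between COX5B, a subunit of cytochrome oxidase, at −0.50 (1645 counts in nhp6ab and 3038 in WT) and QCR8, of the cytochrome bc1 complex, at 0.26 (2487 in nhp6ab and 2714 in WT). COX5B had 5 listed nucleosomes in nhp6ab and 8 in WT, and a mean ratio of 0.18. QCR8 had 7 in nhp6ab and 6 in WT, and a mean ratio of 0.04.

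In the stress response list 2 of 12 genes were at least 1.5-fold lower (3.28% of measured genes) and none higher (1.74%), with a median of −0.01. DDR48, another DNA damage-responsive gene, had 1069 counts in nhp6ab and 2468 in WT, a ratio of −0.82 (−0.93 to −0.72). It had 4 listed nucleosomes in nhp6ab and 7 in WT, and by the mean per nucleosome its ratio was −0.01. HOR7, the paralogue of DDR2, had 1085 counts in nhp6ab and 2165 in WT, a ratio of −0.61 (−0.72 to −0.50), and by the mean it stood at −0.29, but per base at −0.096, from 4 listed nucleosomes in nhp6ab and 5 in WT. For DDR2 the values in the same order of measures were −0.79, −0.38 and −0.25. HSP104, a disaggregase gene on chromosome XII, was highest at 0.57 (11478 counts in nhp6ab and 10091 in WT). The 12 glucose-repressed genes had none past 1.5-fold and a median of −0.06. HXT2, a hexose transporter gene, was lowest at −0.29 (3938 counts in nhp6ab and 6298 in WT), but stood at −0.18 by the mean and −0.009 per base. FBP1, the fructose-1,6-bisphosphatase gene on chromosome XII, was highest at 0.48 (5230 in nhp6ab and 4897 in WT).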

How the data were processed

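H4K16ac ChIP-seq tables of nhp6ab and WT yeast were used, 1 per genotype, each named in the labels of both replicates. Per the file headers, the deposited values are read counts per listed nucleosome. They are whole numbers with different totals and were treated as not normalized. FastQC, Bowtie and build R64 are named in the submitters' processing notes. Not given in the sources used here are the nucleosome caller, any filter and how replicates were merged. Without a column per replicate, edgeR could not be used and ratios with counting intervals replaced it (Python 3.11.15, SciPy 1.17.1). Counting intervals assume independent molecules, which PCR reads lacking molecular identifiers are not, and overlapping intervals may count a read more than once, so they are too narrow.

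Gene positions came from the RefSeq R64 table, with the strand taken from systematic names, and 6418 nuclear genes other than rRNA genes were used. Interval coordinates are as the tables give them, and whether they count from 0 or 1 is not stated. Measured genes had 100 or more counts in both tables combined and a nonzero count in each. A nucleosome was paired with the closest midpoint of the other table, at most 50 bp away and used once, given 10 or more counts in the pair. Named were the 4 members, genes whose ORF lies in their windows, NHP6A and NHP6B, the highest, lowest and called genes of each list, and the 2 nearest genes of each member. ANB1 was added afterwards for its position. The members and lists were chosen with earlier results of these data known. In tables simulated with the real totals and 6190 gene windows, 100% of windows made 1.5-fold lower had an interval that excluded 0, and 4.31% of unchanged ones. The simulated counts were independent, as the interval assumes, so these shares check the calculation and do not give its error in the real tables. There, of 6190 measured windows, 1945 had an interval above 0 and 2535 below 0. No sequences are shown.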

Additional observations from a re-analysis of the deposited data

How the results depend on the processing

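No paired analysis was possible because each table has 1 column for both replicates, so the planned replicate block and leaving out of replicates were not run. Of the summed ratios recomputed under other settings, 79 stayed inside the main counting interval, 37 moved outside it and 7 changed sign from a value whose interval excluded 0. Counts per base in both scalings, the extension past the ORF end and the removal of intervals in other ORFs were added after the data were seen. By the mean per listed nucleosome, the window gave −0.21 for CHA1 and −0.38 for DDR2, the upstream part −0.29 for CHA1 and −0.52 for SUC2, and the ORF −0.15 for CHA1, −0.025 for SUC2 and −0.020 for DDR2. Per base, the window gave −0.041 for CHA1, 0.019 for SUC2, −0.073 for CYC1 and −0.25 for DDR2, the upstream part −0.19 for CHA1 and −0.11 for SUC2, and the ORF 0.060 for SUC2 and 0.086 for DDR2. Per base scaled to the mean per base, the window gave −0.14 for CHA1 and −0.35 for DDR2, the upstream part −0.29 for CHA1 and −0.21 for SUC2, and the ORF −0.042 for SUC2 and −0.015 for DDR2. With paired intervals alone, the window gave −0.058 for CHA1 and −0.24 for DDR2, the upstream part −0.50 for SUC2, and the ORF −0.086 for CHA1, −0.023 for SUC2 and −0.17 for DDR2. With intervals that overlap no other, the window gave −1.26 for CHA1, −0.023 for SUC2 and 1.00 for DDR2, the upstream part −1.36 for SUC2, and the ORF −1.26 for CHA1 and 0.38 for SUC2. That setting left 2 intervals in nhp6ab and 4 in WT at CHA1 and none in either table upstream of CHA1 or at CYC1, and no ORF interval of DDR2 in WT, so it gave no value there. Scaling to the median count gave −0.20 for the SUC2 window and −0.23 for its ORF. From 500 bp upstream, the upstream part gave −0.29 for SUC2 and 0.071 for DDR2, and from 1000 bp the DDR2 window gave −0.17. With any overlap, the window gave 0.18 for CYC1 and −0.58 for DDR2. With 100 bp past the ORF end, CYC1 gave −0.066 for the window and 0.045 for the ORF. Without intervals in other ORFs, the upstream part gave 0.18 for CHA1 and 0.33 for SUC2. The limit of 1.5-fold in place of 2-fold raised the genes called from 17 to 108 higher and from 60 to 203 lower. Beyond what the construction of each setting shows, the cause was not tested. Counting error is widest for intervals with few counts, such as the far upstream one of DDR2 with 88 in nhp6ab.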
